A study of Mus musculus with 25 samples.

Results

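Glutamine starvation of the parental KPC line, a mouse pancreatic ductal adenocarcinoma cell line on the C57BL/6 background, was followed across all genes measured. The members are the 10 of 25 libraries of the series that the labels give to the parental line, 5 from cells held for 24 h in complete DMEM (complete) and 5 from cells held for 24 h in glutamine-free DMEM with 10% dialysed serum (starved). All 10 carry the same line with no hairpin, so the groups differ in glutamine and, where the complete medium held ordinary serum, also in dialysis of the serum, and those cannot be told apart here. The other 15 libraries were starved derivatives with hairpins against luciferase or Slug. They entered the estimate of the spread and the filter that set which genes were tested, but not the means compared. RNA was read at the 3' ends of polyadenylated transcripts with a 3' counting kit, and levels are in CPM, the counts of a library scaled to sum to 1000000. The labels do not say whether the replicates were separate cultures, so every p-value measures the spread between these libraries, which may be technical.

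Glutamine is the most abundant free amino acid of plasma and a main nitrogen and carbon source of cultured pancreatic tumour cells, which use it for nucleotides, amino sugars, glutathione and the tricarboxylic acid cycle. When it is missing, uncharged tRNAs switch on the kinase GCN2, which slows translation initiation and raises translation of the transcription factor ATF4, while the growth kinase complex mTORC1 loses its amino acid signal. The best known gene sets of this response concern ATF4 targets, the epithelial to mesenchymal transition, sterol synthesis and mitosis. What follows describes the remainder of the transcriptome.

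The libraries held 158729 to 549893 counts, with a median of 370439 in complete medium and 212620 in starved cells, so that 1 count was worth 1.82 to 6.30 CPM. Spearman correlations between libraries over the genes tested ran from 0.902 to 0.926 within complete medium, from 0.856 to 0.917 within starved cells and from 0.802 to 0.860 between them. The leading principal component, with 29.9% of the variance, separated the groups, and the next, with 14.6%, set starved replicate 3, the shallowest library, apart from the others. Ductal epithelial markers were present. Of 12 such markers only Cldn4 had no count in any library, and their summed level was 4270 to 5355 CPM in complete medium. It was 2148 to 2673 CPM in starved cells. Fibroblast markers summed to at most 9.56 CPM in any library, and 7 of 10, among them Col1a1 and Pdgfrb, were at 0. Leucocyte markers, led by Cd14, summed to 55.1 to 81.5 CPM in complete medium and 9.41 to 31.5 CPM in starved cells, with Ptprc, Csf1r and 3 more of 8 at 0.

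The response was broad and nearly balanced. The limma test called 2799 of 12473 genes tested (22.4%) at a Benjamini-Hochberg adjusted p under 0.05, with 1341 (10.8%) higher and 1458 (11.7%) lower in starved cells. A change of at least 2-fold, which is an absolute log2 change of 1, was reached by 1742 of the called genes (14.0% of those tested), and 722 (5.79%) reached a log2 change of 2. In 1962 genes (15.7%) all starved libraries lay above, or all below, the complete ones. In complete medium the genes that rose held 11.6% of all counts and those that fell held 21.9%. In starved cells the shares were 21.8% and 11.6%. The genes were sorted by their change in these same libraries, and CPM has the same sum in every library. The swap in shares is therefore largely set by the method and shows no gain or loss of total RNA. In bulk RNA, fewer cells that carry a message and less of it per cell cannot be told apart. The median log2 change over all genes was -0.06, and the central 80% of genes lay between -1.33 and 1.04. Calls followed abundance. In the lowest of 5 classes of mean level 1.64% of genes were called higher and 2.69% lower, and in the highest class 25.1% and 22.6%, so a list of rare messages could gain few calls at this depth.

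**Figure D1:**
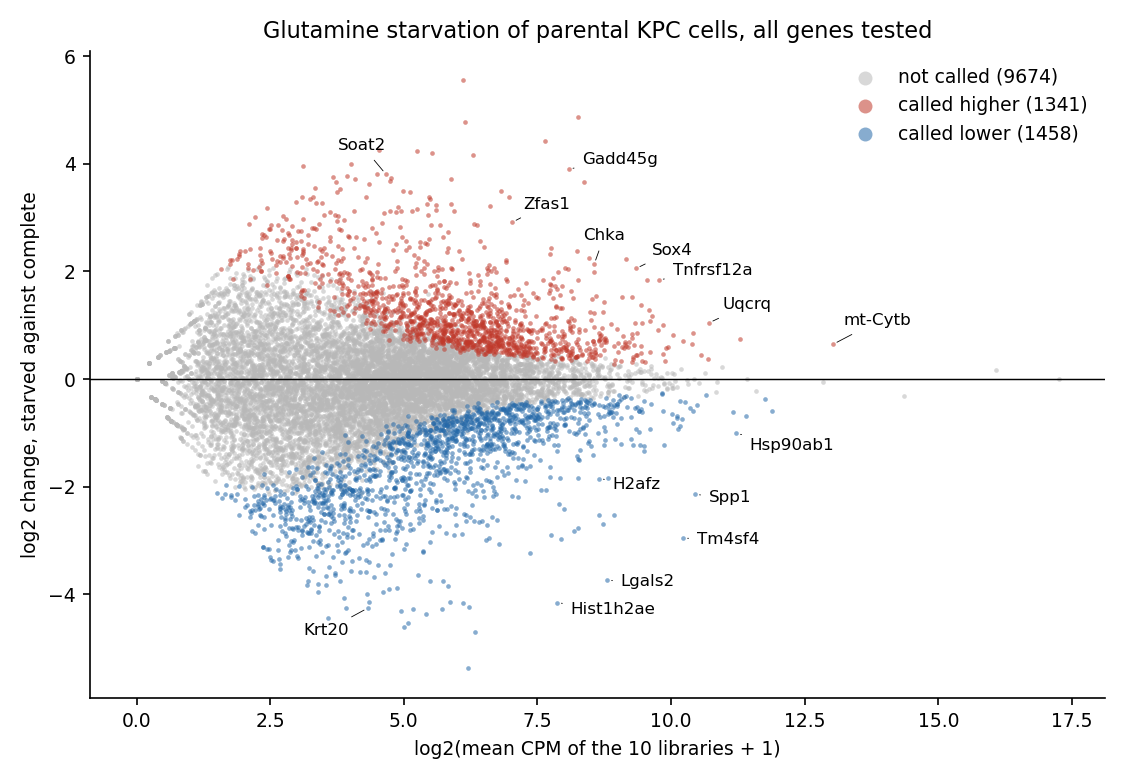
Each point is 1 of the 12473 genes tested, with its mean level over the 10 parental libraries (log2 scale) across and its log2 change, starved against complete, upward. Red points are the 1341 genes called higher and blue points the 1458 called lower; abundant genes such as mt-Cytb were called at changes under 2-fold, and rare genes needed larger changes.

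Among genes that rose far, Gadd45g, a growth arrest and stress gene of the Gadd45 family, had the smallest p of the comparison. Its level was 26.8, 43.3, 30.01, 38.1 and 29.7 CPM in the complete libraries and 497, 526, 459.9, 546 and 517 CPM in the starved ones. Every starved library lay more than 10-fold above the highest complete one. Gadd45g (ENSMUSG00000021453.2, chromosome 13, 51846678 to 51848468, plus strand) thus rose 15.2-fold, a log2 change of 3.90 (SE 0.12, limma adjusted p = 3.3e-36). Chac1, a glutathione-degrading cyclotransferase, rose from 10.9 ± 5.49 to 104 ± 12.1 CPM (SD, n = 5), and Aldh1l2, a mitochondrial enzyme that oxidises formyl-tetrahydrofolate, from 4.84 ± 3.21 to 52.3 ± 21.4 CPM. Sesn2, a leucine-sensing inhibitor of mTORC1, reached 42.6 ± 18.01 CPM from 4.99 ± 3.60. Signals to other cells were among the risen genes. Gdf15, a stress cytokine, rose from 4.09 ± 2.22 to 47.2 ± 24.01 CPM. Edn1, the precursor of endothelin-1, had 3 counts over all complete libraries and 27 over the starved ones (22.4 ± 14.00 CPM).

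Genes of lipid, nucleoside and ion handling stood beside them. Soat2, which esterifies cholesterol, was at 0, 7.88, 0, 2.93 and 8.10 CPM in the complete libraries and at 28.7, 62.5, 37.8, 43.6 and 51.7 CPM in the starved ones, with no overlap. Its log2 change was 3.81 (SE 0.43, limma adjusted p = 7.7e-11), while Stard4, a carrier of free cholesterol, went from 138 ± 12.9 to 9.06 ± 5.27 CPM. Upp1, uridine phosphorylase, which releases ribose phosphate from uridine, had 3 counts over the complete libraries and 33 over the starved ones. Letm2, a paralogue of the mitochondrial cation exchanger Letm1, had 3 and 37. Itpr2, an inositol trisphosphate receptor that releases calcium from the endoplasmic reticulum, rose 10.1-fold to 50.5 ± 17.7 CPM. Ptpn22, a tyrosine phosphatase studied mainly in lymphocytes, had 3 counts in complete medium and 43 in starved cells, and the glucocorticoid-induced leucine zipper gene Tsc22d3 rose 7.25-fold to 52.5 ± 20.8 CPM. Of the leucocyte markers above only Cd14 passed the filter on low levels, and it fell.

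The promoters of the risen genes were searched for short motifs, because ATF4 binds a composite element, here spelled TGATGNAAN on either strand. A RefSeq promoter, 250 bases before to 50 after a start site on build GRCm38.p6, was matched to 8993 of the 12473 genes tested. The composite was found in 199 of these (2.21%) and in 3.95% of all 32851 windows of the table. It was found in 40 of 976 risen genes (4.10%), in 14 of the 159 with a log2 rise of at least 2 (8.81%) in 16 of 1103 fallen genes (1.45%) and in 2.02% of the 347 with a log2 fall of at least 2. Below, capitals mark the match in each of the 40 most risen named genes that hold it, and the lower-case flanks are up to 25 bases; each sequence is read along the strand of the gene.
Bcl2l15 (chr3:103832478-103832536, plus strand): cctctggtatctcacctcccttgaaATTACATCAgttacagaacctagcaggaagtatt
Gadd45g (chr13:51846548-51846606, plus strand): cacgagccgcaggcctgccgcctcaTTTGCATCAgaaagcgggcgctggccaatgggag
Trib3 (chr2:152344031-152344072, minus strand): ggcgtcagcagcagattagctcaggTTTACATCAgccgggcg
Nupr1 (chr7:126625548-126625606, minus strand): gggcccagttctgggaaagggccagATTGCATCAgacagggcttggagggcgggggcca
Chac1 (chr2:119351023-119351081, plus strand): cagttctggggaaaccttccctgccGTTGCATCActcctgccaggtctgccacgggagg
Pycr1 (chr11:120643818-120643876, minus strand): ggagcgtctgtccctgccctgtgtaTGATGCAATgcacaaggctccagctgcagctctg
Arid5a (chr1:36307543-36307601, plus strand): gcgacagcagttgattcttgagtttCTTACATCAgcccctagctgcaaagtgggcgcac
The match lay between 194 bases before and 13 bases after the RefSeq start site in these 7 promoters. Gadd45g and Arid5a, an RNA-binding regulator of inflammatory messages that rose from 3.55 ± 3.52 to 28.01 ± 9.99 CPM, carried it beside Chac1 and Pycr1.

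The cyclic AMP response element TGACGTCA, which reads the same on both strands, was in 3.47% of the promoters tested, in 4.30% of the risen genes and in 3.14% of those with a log2 rise of at least 2. It was in 1.81% of the fallen genes and in none of the 347 that fell by a log2 change of 2 or more. It stood in 3 of the 40 most risen named genes, shown with the element in capitals.
Plk2 (chr13:110394957-110395014, plus strand): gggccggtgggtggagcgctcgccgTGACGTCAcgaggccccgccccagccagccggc
Arl5b (chr2:15055174-15055231, plus strand): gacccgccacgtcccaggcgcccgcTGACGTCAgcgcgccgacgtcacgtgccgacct
Ppp1r15a (chr7:45526248-45526305, minus strand): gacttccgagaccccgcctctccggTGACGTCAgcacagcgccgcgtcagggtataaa
Plk2 is a polo-like kinase, Arl5b a small Arf-like GTPase of the Golgi and Ppp1r15a (GADD34) the phosphatase subunit that restores translation. Arl5b rose from 10.00 ± 11.8 to 57.05 ± 14.4 CPM. The AP-1 site TGANTCA was in 4.59% of all promoters tested, in 5.64% of the risen genes, in 12.6% of those with a log2 rise of at least 2 in 4.99% of the fallen ones and in 6.63% of the strongly fallen ones. The fallen genes held more CCAAT boxes (CCAAT, 45.4% against 38.6% of all tested) and more of the cell cycle element CHR (TTTGAA, 14.9% against 11.6%). The E-box CACCTG, which Slug can bind, was in 16.9% of all promoters tested, in 14.4% of the risen genes but 18.9% of the strongly risen ones, and in 18.3% of the fallen and 20.2% of the strongly fallen genes. The sterol response element TCACNCCA was in 3.52% of all promoters tested, in 4.30% of the risen and 7.55% of the strongly risen genes. It was in 3.90% of the fallen and 4.61% of the strongly fallen ones. For the antioxidant response element TGACNNNGC the shares were 14.7% of all tested, 17.1% and 13.2% of the risen and strongly risen, and 15.4% and 13.5% of the fallen and strongly fallen genes. A match is a description of letters and no evidence of binding.

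**Figure D2:**
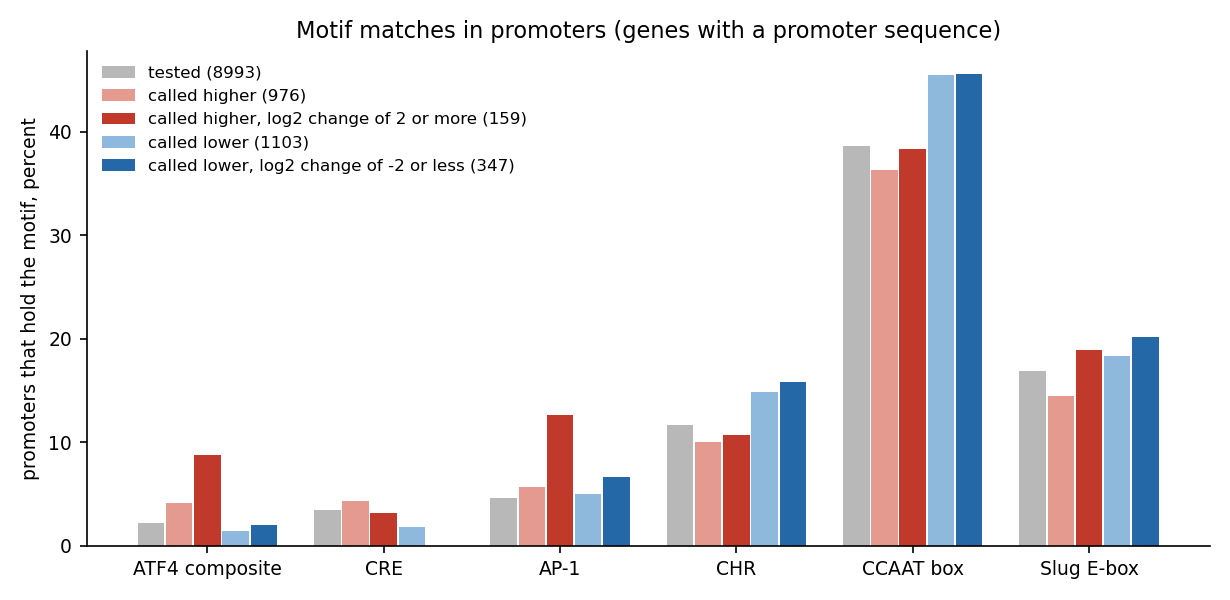
Bars give the percentage of promoters (250 bases before to 50 after the start site) that hold each motif on either strand, for all genes tested, genes called higher or lower, and those with a log2 change of at least 2 in size. The ATF4 composite and the AP-1 site were held by 8.81% and 12.6% of the strongly risen genes, against 2.21% and 4.59% of all tested. The sterol response element, not drawn, was held by 7.55% against 3.52%.

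Of the 40 largest log2 falls taken by the naming rule, Lgals2, a galactose-binding lectin of the gut lining, was the most abundant in complete medium. It was at 924, 733, 877, 888 and 748 CPM in the complete libraries and at 47.8, 78.2, 69.3, 58.2 and 56.4 CPM in the starved ones. Lgals2 (ENSMUSG00000043501.4, chromosome 15, 78850860 to 78855529, minus strand) fell 13.5-fold, a log2 change of -3.74 (SE 0.13, limma adjusted p = 4.1e-34). Several genes of the cell surface and of barriers were among the same 40. Cldn2, a channel-forming claudin, went from 95.4 ± 13.9 to 9.42 ± 7.80 CPM, Ppl, the desmosomal linker periplakin, from 51.8 ± 7.89 to 4.68 ± 5.24 CPM, and Krt20, a keratin of differentiated gut epithelium, from 36.4 ± 6.05 to 1.73 ± 2.50 CPM. Tff2, a mucus-stabilising peptide, fell from 65.3 ± 11.7 to 4.998 ± 6.12 CPM. Ly6a and Psca, small surface proteins held by a lipid anchor, went from 80.5 ± 8.32 to 7.12 ± 4.68 CPM and from 21.2 ± 6.97 to 2.32 ± 3.20 CPM. Tmprss2, a membrane-bound serine protease, fell 11.2-fold to 3.82 ± 5.90 CPM.

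The 40 also held single enzymes of detoxification and of small-molecule breakdown. Vnn1, which cleaves pantetheine, went from 46.9 ± 11.4 to 3.75 ± 4.29 CPM. Sult1c2, a sulphotransferase, fell 12.5-fold from 106 ± 13.7 CPM, Ephx1, the microsomal epoxide hydrolase, from 26.5 ± 1.78 to 1.001 ± 1.45 CPM, and Cyp2s1, a cytochrome P450, from 33.4 ± 7.54 to 3.90 ± 4.03 CPM. Gcat, a mitochondrial enzyme of threonine breakdown that yields glycine, fell from 97.7 ± 10.2 to 14.3 ± 13.4 CPM. Of receptors and adaptors, the Wnt receptor Fzd5 fell from 36.8 ± 13.4 to 2.003 ± 2.91 CPM and Grb7, which docks on ERBB2, from 35.3 ± 5.54 to 5.98 ± 10.2 CPM. Eps8l3, a relative of the actin-capping protein Eps8, fell from 27.3 ± 8.01 to 1.04 ± 2.33 CPM.

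Ranked by the difference in CPM, other genes led. Tm4sf4, a tetraspan membrane protein, was at 1824, 2285, 2441, 2009.5 and 2087 CPM in the complete libraries and at 293, 276, 239, 227 and 339 CPM in the starved ones, a fall of 7.74-fold. Spp1, the secreted phosphoprotein osteopontin, fell from 2289.7 ± 264 to 518 ± 59.1 CPM and the trefoil peptide gene Tff1 from 835 ± 105 to 145 ± 31.9 CPM. Hsp90ab1, a constitutive cytosolic chaperone, fell by 1610.3 CPM from 3195 ± 204 CPM. On the other side, Sox4, a transcription factor of progenitor cells, was at 244, 221, 317, 287 and 202 CPM in the complete libraries and at 1052, 1099, 983, 1011 and 1091 CPM in the starved ones. Tnfrsf12a, the receptor of the cytokine TWEAK, rose from 382 ± 29.8 to 1373 ± 104 CPM, and Itpripl2, a membrane protein related to an inositol trisphosphate receptor partner, from 201 ± 22.6 to 944 ± 104 CPM. Eif2s2, the beta subunit of the initiation factor whose alpha subunit GCN2 phosphorylates, rose from 969 ± 73.5 to 1768 ± 179 CPM. The mitochondrial message mt-Cytb rose 1.56-fold to 10227 CPM, whereas mt-Nd1 went from 3904 to 3018 CPM. Under quantile scaling, which forces the top ranks of all libraries to the same values, the mt-Cytb call was lost and the mt-Nd1 change turned to 0.0065 on the log2 scale. The mitochondrial share of all counts was 24.0% ± 3.25 in complete medium and 25.1% ± 1.68 in starved cells (SD, n = 5, exact permutation p = 0.579, two-sided, adjusted over 6 composition measures 0.905).

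**Figure D3:**
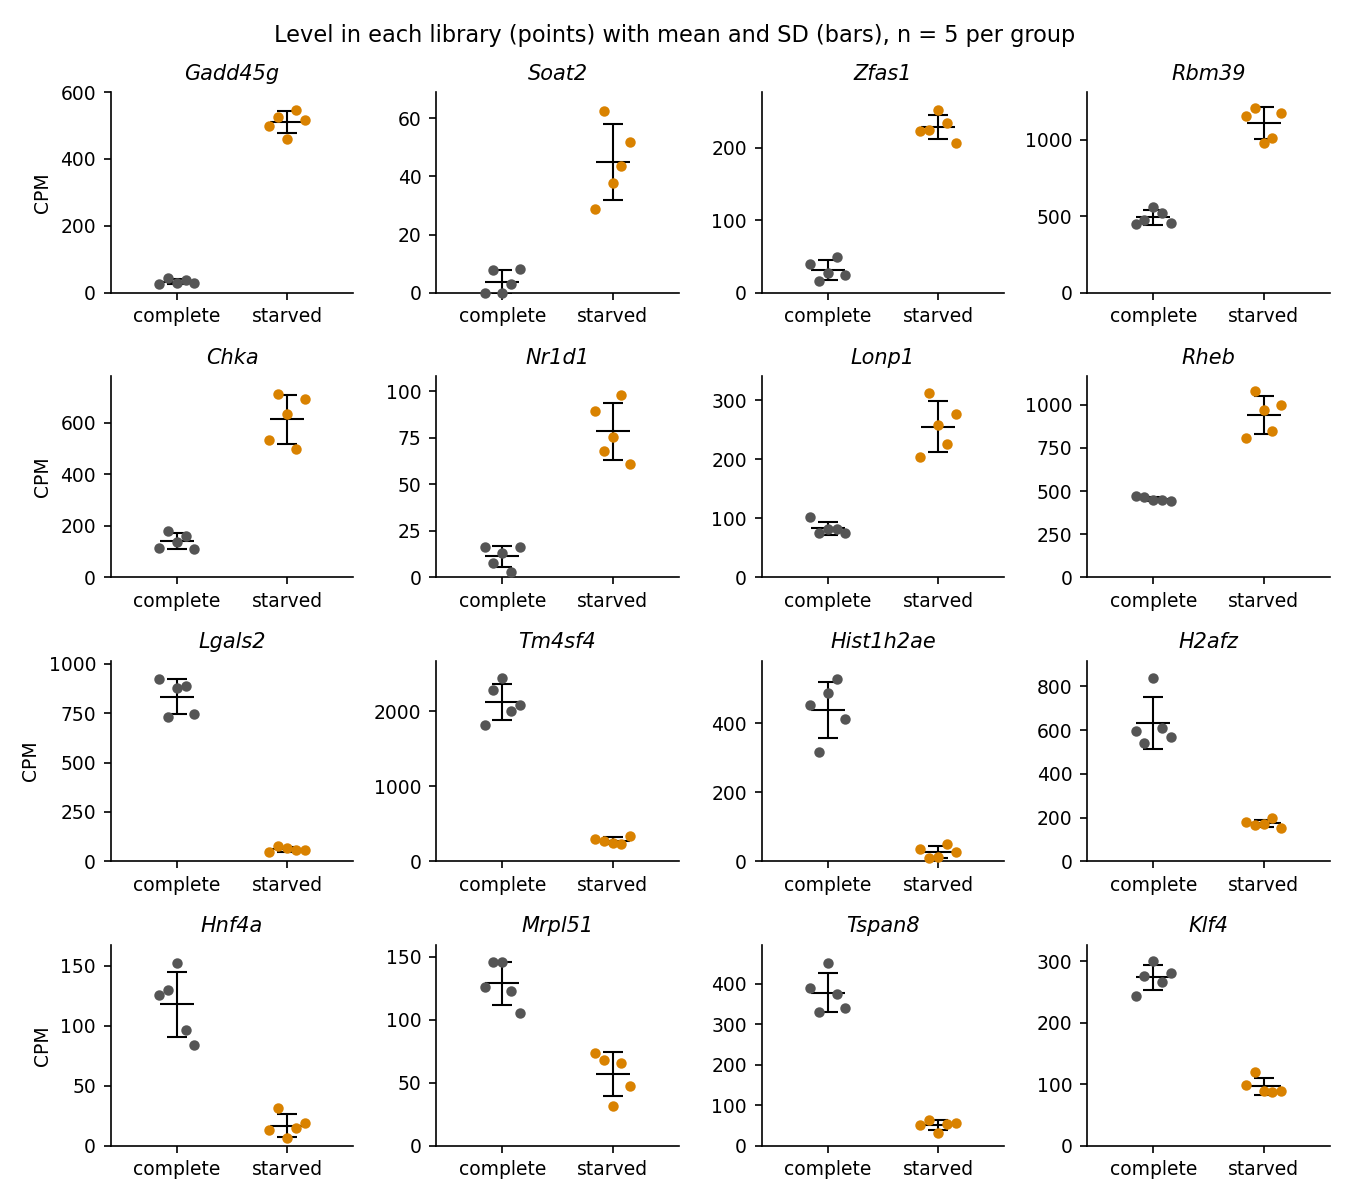
Points are the levels in CPM of single libraries, 5 in complete medium (grey) and 5 starved (orange), and bars give the mean and SD; each axis starts at 0. In each of the 16 genes shown the groups did not overlap.

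Called genes of ribosome assembly were mostly higher. Of 94 ribosome biogenesis genes tested, 28 rose and 4 fell, with a median log2 change of 0.43. With 1 library left out, 21 to 27 rose and 1 to 5 fell. Sbds, which frees new large subunits for translation, was at 129, 154, 126, 146 and 157 CPM in the complete libraries and at 293, 307, 277, 316 and 399.8 CPM in the starved ones. Eif6, the factor that Sbds helps to release, rose from 351 ± 41.97 to 667 ± 27.9 CPM, with a log2 change of 0.93 (SE 0.11, limma adjusted p = 1.7e-10). Nop58, a core protein of box C/D small nucleolar RNA particles, rose from 398 ± 43.5 to 696 ± 95.5 CPM, Nol8 from 47.3 ± 20.1 to 129 ± 31.7 CPM and Wdr12, of the large-subunit assembly complex with Pes1 and Bop1, from 111 ± 7.21 to 211 ± 47.6 CPM. The cytosolic ribosomal protein genes together took 4.35% ± 0.44 of the counts in complete medium and 3.91% ± 0.29 in starved cells (SD, n = 5, exact permutation p = 0.0794, adjusted 0.405). Of 39 genes of RNA polymerases I and III and their factors, 4 rose (10.3%) and 3 fell (7.69%), near or below the shares of all genes tested.

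Long noncoding RNAs of the nucleus, most of them hosts of small nucleolar RNAs (snoRNAs), had the highest share of rises among the 53 lists, 14 of 26 tested with 1 fall and a median log2 change of 0.92 (1.45 with a minimum of 20 CPM). The 14 include Gm26917, which overlaps ribosomal RNA sequence and rose 2.81-fold. The host genes carry snoRNAs in their introns, and many of their spliced messages are known to be removed by nonsense-mediated decay when translated. Zfas1 was at 40.2, 15.8, 27.9, 49.8 and 24.3 CPM in the complete libraries and at 223, 224, 252, 235 and 207 CPM in the starved ones. The rise was 7.23-fold (ENSMUSG00000074578.13, chromosome 2, 167062934 to 167065862, plus strand; log2 change 2.92, SE 0.19, limma adjusted p = 3.5e-20). Snhg1 rose 4.35-fold, from 44.9 ± 14.8 to 195 ± 15.9 CPM, Snhg6 3.08-fold to 113 ± 17.01 CPM and Gas5 2.65-fold to 334 ± 92.9 CPM. Starved replicate 4 had the highest Gas5 level, 498 CPM, and the lowest of the starved libraries still lay above all of complete medium. Of 8 small RNA genes that share exon sequence with Gas5 and were counted apart from it, 6 rose as well, and reads of host and guest cannot be told apart there. Snord47, named after its value was seen, went from 46.2 ± 6.70 to 128 ± 42.9 CPM. Of the 11 tested genes whose symbol starts with Snhg, 6 rose and 0 fell.

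Of 62 SR, hnRNP and related proteins, 18 rose and 1 fell, with a median log2 change of 0.13. Rbm39, a splicing coactivator, was at 449.9, 477, 562, 518 and 454 CPM in the complete libraries and at 1154, 1209, 977, 1013 and 1176 CPM in the starved ones. Hnrnph1 and Hnrnph3 rose from 52.1 ± 16.6 to 157 ± 50.2 CPM and from 10.8 ± 7.04 to 53.3 ± 9.16 CPM, Tra2b, a splicing activator, from 130.2 ± 13.9 to 268 ± 38.4 CPM, and Son, a scaffold of nuclear speckles, from 1043 ± 84.02 to 1639 ± 189 CPM. Of 54 core spliceosome genes 8 rose (14.8%, and 5 to 9 genes with 1 library left out) and 10 fell (18.5%). The difference between these lists was not tested. Snrpd2, an Sm ring protein, fell from 539 ± 65.5 to 203 ± 31.8 CPM and Lsm2, of the Lsm ring, from 220.2 ± 16.9 to 73.5 ± 16.2 CPM, while Prpf38a rose from 32.7 ± 5.04 to 71.7 ± 13.7 CPM. Of 72 RNA decay genes 13 rose and 4 fell. The helicase Ddx6, which represses messages and promotes their decapping, rose from 99.4 ± 17.2 to 196 ± 13.4 CPM. Ythdf2, a reader of methylated adenosine, rose from 67.6 ± 10.9 to 142 ± 16.8 CPM. Of the 33 genes with a Ddx symbol, DEAD-box helicases, 9 rose and 0 fell. Of 69 tRNA modification and processing genes 7 rose (10.1%, near the 10.8% of all genes tested) and 2 fell. Of those that rose, Trmt6, a subunit of the tRNA adenosine methyltransferase, went from 180.4 ± 19.97 to 367 ± 90.3 CPM. Rpp21, a ribonuclease P subunit, fell from 119 ± 26.03 to 45.6 ± 19.1 CPM.

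**Figure D4:**
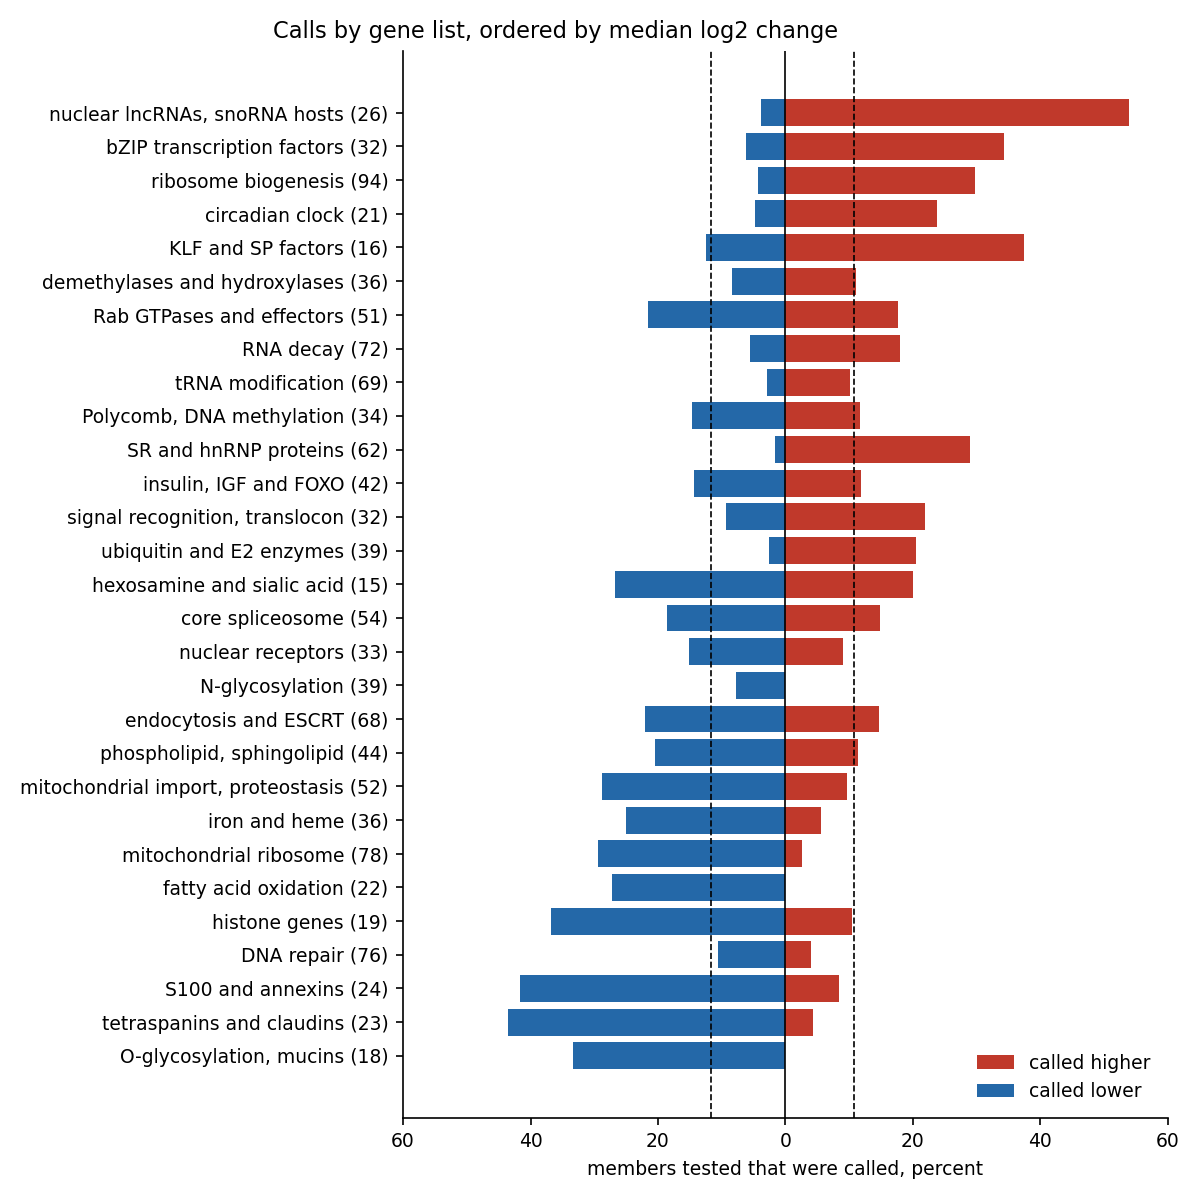
Bars give, for 29 gene lists with the number of members tested, the percentage called higher (red, to the right) and called lower (blue, to the left), and dashed lines the same over all genes tested, 10.8% and 11.7%. Lists are ordered by their median log2 change, from nuclear long noncoding RNAs at the top, where 14 of 26 were called higher, to O-glycosylation genes, where 6 of 18 were called lower.

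Of 78 mitochondrial ribosomal protein genes 23 fell and 2 rose, with a median log2 change of -0.28. Mrpl51, of the large subunit, was at 126, 146, 146, 123 and 105 CPM in the complete libraries and at 73.3, 67.7, 31.5, 65.5 and 47.03 CPM in the starved ones. Mrpl18 fell from 288 ± 31.7 to 157 ± 42.2 CPM, Mrps24, of the small subunit, from 236 ± 51.6 to 107 ± 21.6 CPM, Mrpl42 from 424 ± 84.4 to 224 ± 28.1 CPM and Mrpl15 from 134 ± 15.95 to 53.1 ± 17.98 CPM. Of 52 genes of mitochondrial import and protein quality control, 15 fell and 5 rose. Lonp1, the matrix protease, was at 102, 74.8, 81.5, 82.02 and 75.6 CPM in the complete libraries and at 204, 313, 258, 225 and 277 CPM in the starved ones, and Hspa9, the matrix Hsp70 that pulls proteins in, rose from 440.4 ± 27.2 to 789 ± 86.4 CPM. Hspe1, the cochaperonin of Hsp60, fell from 653 ± 73.3 to 366 ± 60.7 CPM and the prohibitin Phb2 from 317 ± 33.4 to 189.7 ± 17.3 CPM. Uqcrq, a subunit of respiratory complex III, rose from 1093 ± 56.9 to 2261 ± 182 CPM, while Uqcc2, which helps to assemble that complex, fell from 1495 ± 104 to 815 ± 46.4 CPM.

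Of 23 tetraspanins and claudins, surface proteins, 10 fell and 1 rose, with a median log2 change of -0.80 (-0.40 with edgeR, which called 8 lower). Tspan8 was at 391, 331, 452, 375 and 340.1 CPM in the complete libraries and at 51.00, 62.5, 31.5, 52.7 and 56.4 CPM in the starved ones, and Cd9 and Cd81, tetraspanins of exosomes, fell from 506 ± 56.4 to 213 ± 18.9 CPM and from 238 ± 34.5 to 124 ± 10.5 CPM. Of 24 S100 and annexin genes 10 fell and 2 rose (median log2 change -0.59). S100a13 fell from 125 ± 36.7 to 30.8 ± 7.49 CPM and Anxa8 from 145 ± 29.4 to 39.3 ± 11.04 CPM, whereas S100a3 rose from 4.43 ± 5.82 to 20.98 ± 9.39 CPM. Of 18 genes of mucin-type O-glycosylation 6 fell and 0 rose, with a median log2 change of -0.91. They included the mucin Muc1 and the enzymes Gcnt3, which went from 115 ± 15.7 to 34.6 ± 10.2 CPM, Galnt7, from 158 ± 29.9 to 53.9 ± 10.6 CPM, and B3gnt3, from 64.7 ± 6.31 to 29.8 ± 12.8 CPM. Of 39 N-glycosylation genes 3 fell (7.69%, below the share of all genes, and 2 to 5 with 1 library left out) and 0 rose. Rpn1, an oligosaccharyltransferase subunit, fell from 161 ± 19.8 to 92.2 ± 18.6 CPM. These lists overlap in cell type with the ductal epithelial markers, of which 6 of 9 tested fell and 1 rose.

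Glutamine gives the amide nitrogen of amino sugars, and of 15 hexosamine and sialic acid genes 3 rose and 4 fell. Gnpnat1, which acetylates glucosamine phosphate, was at 48.2, 59.1, 72.9, 35.2 and 48.6 CPM in the complete libraries and at 156, 151, 113, 127 and 122 CPM in the starved ones. Ogt, which places single N-acetylglucosamine residues on nuclear and cytosolic proteins, rose from 36.7 ± 14.2 to 83.9 ± 16.5 CPM, and Mgea5, which removes them, from 92.5 ± 20.1 to 169 ± 31.3 CPM. Uap1l1 fell from 64.7 ± 14.4 to 23.7 ± 9.19 CPM and Nans, the sialic acid synthase, from 167 ± 23.2 to 106 ± 17.9 CPM.

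Chka, choline kinase alpha, which starts phosphatidylcholine synthesis, was at 112, 181, 137, 158 and 111 CPM in the complete libraries and at 532, 714, 636, 498 and 691 CPM in the starved ones, a rise of 4.39-fold (log2 change 2.14, SE 0.15, limma adjusted p = 2.4e-18). Pcyt1a and Pcyt2, the next enzymes of the choline and ethanolamine routes, fell from 112 ± 16.4 to 56.6 ± 15.2 CPM and from 80.5 ± 20.1 to 25.2 ± 9.51 CPM. Of the 44 phospholipid and sphingolipid genes 5 rose (11.4%, near the share of all genes tested, and 3 to 6 with 1 library left out) and 9 fell (20.5%). Plin2, the main coat protein of lipid droplets, rose from 94.1 ± 16.8 to 379 ± 84.4 CPM and Hilpda, which inhibits their breakdown, from 41.6 ± 14.3 to 101 ± 30.7 CPM. Of the 16 lipid droplet genes these were the 2 that rose (12.5%), beside 3 that fell (18.8%). Of 22 genes in the fatty acid oxidation list 6 fell and 0 rose. The list includes acyl-CoA synthetases, which are not specific to oxidation. Of these, Acsl3 fell from 165 ± 23.1 to 36.7 ± 10.9 CPM and Acsl5 from 149 ± 10.5 to 71.98 ± 18.8 CPM. The oxidation enzyme gene Hadh fell from 50.3 ± 7.63 to 18.3 ± 6.45 CPM. Far1, a peroxisomal reductase of ether lipid synthesis, fell from 452 ± 33.4 to 161 ± 10.9 CPM.

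Of 36 heme and iron genes 9 fell (25%) and 2 rose (1 without complete replicate 1). Cpox, of its late mitochondrial steps, was at 21.4, 23.6, 27.9, 26.4 and 8.10 CPM in the complete libraries and at 73.3, 72.9, 63.00, 61.8 and 75.3 CPM in the starved ones, whereas the earlier cytosolic enzyme Alad fell from 60.9 ± 23.5 to 16.5 ± 12.5 CPM. Blvra, biliverdin reductase, fell from 71.7 ± 8.82 to 19.6 ± 8.69 CPM and the ferritin heavy chain Fth1 from 817 ± 78.9 to 538 ± 49.4 CPM. Selenop, the secreted selenium carrier, fell 4.75-fold, from 393 ± 30.2 to 82.9 ± 35.3 CPM, while of 24 selenoprotein and selenium-handling genes 4 rose and 3 fell. Of 14 pentose phosphate and NADPH genes 1 rose (7.14%, and 2 genes without complete replicate 5) and 3 fell (21.4%). Idh1, the cytosolic isocitrate dehydrogenase, fell from 103 ± 24.1 to 20.1 ± 8.82 CPM, Tkt, transketolase, from 278 ± 37.5 to 164 ± 48.1 CPM, and Me1, malic enzyme, from 147 ± 27.6 to 85.1 ± 21.97 CPM. Among polyamine genes, of which 3 rose and 4 fell of 19, the inhibitor of polyamine synthesis Oaz1 fell from 269.8 ± 31.5 to 118 ± 10.98 CPM and Azin1, which blocks that inhibitor, rose from 44.96 ± 11.4 to 106 ± 16.5 CPM.

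Of 32 transcription factors of the basic leucine zipper class 11 rose and 2 fell (median log2 change 0.46, and 0.79 with a minimum of 20 CPM). Atf5, a relative and known target of ATF4, was at 8.03, 19.7, 25.7, 17.6 and 16.2 CPM in the complete libraries and at 92.4, 83.4, 101, 111 and 79.95 CPM in the starved ones. Cebpg, a dimer partner of ATF4, rose from 85.1 ± 19.2 to 183 ± 37.4 CPM, and the small Maf proteins Maff and Mafg from 23.2 ± 7.55 to 82.3 ± 11.9 CPM and from 39.1 ± 14.8 to 90.3 ± 14.2 CPM. Of 16 KLF and SP factors 6 rose and 2 fell (1 to 2 with 1 library left out). Klf6 rose from 211 ± 18.1 to 502 ± 63.1 CPM, whereas Klf4, a factor of epithelial differentiation, was at 244, 276, 300.1, 267 and 281 CPM in the complete libraries and at 98.8, 119.8, 88.2, 87.3 and 89.4 CPM in the starved ones. Klf5 rose from 68.99 ± 21.8 to 121 ± 18.6 CPM.

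Of 21 circadian clock genes 5 rose and 1 fell (0 to 2 with 1 library left out). Nr1d1 (REV-ERB alpha), a heme-binding repressor of the clock, was at 16.1, 7.88, 12.9, 2.93 and 16.2 CPM in the complete libraries and at 89.3, 67.7, 75.6, 98.2 and 61.1 CPM in the starved ones, a rise of 7.01-fold (log2 change 2.87, SE 0.25, limma adjusted p = 2.3e-14). Exons of Nr1d1 and of Thra overlap on opposite strands, and reads of the shared stretch may belong to either; Thra was at 26.7 ± 6.08 CPM in complete medium and 20.4 ± 8.08 CPM in starved cells. Ciart, another repressor of the clock, rose from 14.2 ± 4.46 to 49.8 ± 12.5 CPM and Csnk1e, a kinase that marks the period proteins, from 65.3 ± 20.8 to 159 ± 24.1 CPM. Hnf4a, a factor of liver and gut epithelium, was at 126, 130.0, 152, 96.7 and 83.7 CPM in the complete libraries and at 12.8, 31.3, 6.30, 14.5 and 18.8 CPM in the starved ones, and Pparg, a lipid-sensing receptor, fell from 115 ± 19.4 to 29.5 ± 14.7 CPM. The glucocorticoid receptor gene Nr3c1 rose from 95.8 ± 30.7 to 161 ± 24.3 CPM.

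Of 19 tested genes in the list of histones and their variants 7 fell and 2 rose. Their median log2 change was -0.41, but -0.14 under quantile scaling and 0.04 with a minimum of 20 CPM, so it gives no direction. Hist1h2ae, a replication-dependent H2A gene whose messages mostly lack a poly(A) tail and are poorly caught by a kit that primes on it, was at 453, 315, 487, 527 and 413 CPM in the complete libraries and at 35.1, 10.4, 12.6, 50.9 and 28.2 CPM in the starved ones, with no overlap. Of all genes with a Hist symbol, a count made over symbols and not from the list, 19 were tested, of which 10 fell and 0 rose. The polyadenylated variant H2afz fell from 632 ± 119 to 173 ± 17.8 CPM and H2afv from 409 ± 43.1 to 215 ± 23.97 CPM, while H2afj and H3f3b, a source of the variant H3.3 that does not depend on replication, rose from 455 ± 53.9 to 731 ± 80.8 CPM and from 497 ± 51.04 to 769 ± 67.3 CPM. Kdm6b, which demethylates lysine 27 of histone H3, rose from 24.5 ± 8.89 to 81.5 ± 27.3 CPM and Jmjd1c from 45.4 ± 6.88 to 101 ± 16.3 CPM, and Egln3, an oxygen-sensing hydroxylase, fell from 12.5 ± 11.9 CPM to no count in the starved libraries. The deacetylase gene Hdac6 fell from 18.7 ± 4.22 to 3.25 ± 5.46 CPM. Uhrf1, which guides maintenance methylation after replication, went from 110.4 ± 24.6 to 46.6 ± 20.6 CPM.

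Rheb, the GTPase that switches on mTORC1, was at 469, 465, 448, 445 and 440.0 CPM in the complete libraries and at 807, 1079, 970.2, 851 and 1002 CPM in the starved ones. Eif4ebp1, the translation repressor that mTORC1 inactivates, rose from 605 ± 91.96 to 1124 ± 62.9 CPM, and Igfbp3, which binds insulin-like growth factors, from 23.6 ± 6.36 to 111 ± 13.4 CPM, while Igfbp4 fell from 436 ± 12.8 to 243 ± 21.4 CPM. Ctnnb1, beta-catenin, fell from 401 ± 40.7 to 261 ± 31.6 CPM. Efnb2, an ephrin ligand, rose from 82.4 ± 16.9 to 216 ± 31.1 CPM and Epha2, an ephrin receptor, from 53.1 ± 15.1 to 118 ± 16.6 CPM, and the plexin Plxnb2 fell from 193 ± 14.9 to 86.9 ± 19.7 CPM. Of 40 death receptor and caspase genes 5 rose (12.5%, near the 10.8% of all genes tested, and 3 to 5 with 1 library left out) and 7 fell (17.5%). Cflar, which restrains caspase 8, rose from 41.9 ± 11.6 to 104 ± 12.6 CPM and Birc5, survivin, a mitotic gene, fell from 131 ± 17.4 to 30.5 ± 12.3 CPM.

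Of 51 Rab genes 9 rose and 11 fell, but 6 fell without complete replicate 3 and 7 without complete replicate 1 or 4, with Rab14 rising from 329.8 ± 27.2 to 529 ± 24.6 CPM and Rab27b, of exosome and granule release, falling from 125 ± 14.5 to 52.5 ± 9.07 CPM. Of 68 endocytosis and ESCRT genes 10 rose and 15 fell (9 without complete replicate 3). Within ESCRT-III, which pinches membranes, Chmp4b rose from 131 ± 23.3 to 253 ± 39.2 CPM and Chmp2a fell from 130.5 ± 32.1 to 56.7 ± 15.5 CPM. Of 36 proteases and inhibitors 8 rose and 9 fell. Timp1, which inhibits matrix metalloproteases, rose from 33.2 ± 6.56 to 74.4 ± 27.1 CPM, and Wfdc2, a secreted protein of the whey acidic protein family, fell from 419 ± 34.6 to 233 ± 62.5 CPM. Of 39 ubiquitin and E2 genes 8 rose and 1 fell (1 to 2 with 1 library left out), among them Ube2w, a ubiquitin-conjugating enzyme, from 47.8 ± 12.9 to 116 ± 21.9 CPM.

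In other lists the shares that rose lay near or below the 10.8% of all genes, and most shares that fell near or below 11.7%. The shares that fell were higher for cholesterol efflux (15.4%), nuclear receptors (15.2%), Polycomb and DNA methylation (14.7%), insulin, IGF and FOXO (14.3%) and Wnt (13.2%). All rest on few genes, and the counts are given as a description. Of 36 demethylases and related hydroxylases 4 rose and 3 fell (1 to 3 with 1 library left out), and of 34 Polycomb and DNA methylation genes 4 rose and 5 fell (2 to 5). Of 38 deacetylases and acetyltransferases 3 rose (0 to 4) and 4 fell (1 to 4), whereas edgeR called 8 higher and 3 lower. Insulin, IGF and FOXO genes had 5 rises (3 to 6) and 6 falls of 42, Wnt genes 3 and 5 (3 to 5) of 38, and semaphorin and ephrin genes 4 and 4 of 39. Nuclear receptors had 3 rises and 5 falls (3 to 5) of 33, cilium genes 2 (1 to 2) and 2 (1 to 3) of 52, and DNA repair genes 3 (1 to 4) and 8 (5 to 9) of 76. Coat and Golgi genes had 7 rises (4 to 8) and 4 falls (2 to 5) of 75, nuclear pore genes 7 and 5 (3 to 6) of 59, and peroxisome genes 2 (1 to 2) and 2 of 28. Notch genes had 2 rises (1 to 3) and 0 falls of 30, metallothionein and zinc genes 1 (0 to 3) and 1 (0 to 2) of 19, and cholesterol efflux genes 0 and 2 (1 to 2) of 13.

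Of 750 long noncoding RNA genes tested 90 rose (12%) and 14 fell (1.87%), with a median log2 change of 0.29, against 1206 rises (11%) and 1399 falls (12.7%) among 10989 protein-coding genes, whose median was -0.08. Of 482 pseudogenes 16 rose (3.32%) and 26 fell (5.39%), both below the shares of all genes tested. Besides Zfas1, the noncoding genes with the smallest p were 5430416N02Rik, which was at 26.8, 19.7, 27.9, 8.79 and 13.5 CPM in the complete libraries and at 185, 167, 170.1, 171 and 179 CPM in the starved ones, 2410006H16Rik, from 69.2 ± 18.1 to 352 ± 106 CPM, Mirt1, from 8.47 ± 2.85 to 86.8 ± 19.2 CPM, and A330069E16Rik, from 13.3 ± 7.56 to 107 ± 25.02 CPM. Gm42418 and Gm26917 overlap ribosomal RNA sequence and took most of the noncoding counts. Without them the noncoding share of all counts was 1.01% ± 0.04 in complete medium (0.964% to 1.06%) and 1.52% ± 0.05 in starved cells (1.45% to 1.59%; SD, n = 5, exact permutation p = 0.00794, two-sided, the smallest possible with 5 against 5 libraries). With them it was 3.32% ± 0.48 and 3.44% ± 0.65 (exact permutation p = 0.706, adjusted 0.905). Leaving them out was chosen after the values were seen.

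Protein-coding genes with a short total exonic length fell more often. That length joins the annotated exons of all transcripts of a gene, so it is not the length of a message. When these genes were ranked by total exonic length in GENCODE M21 and cut into 5 classes, 21.7% of the shortest class fell, then 15.01%, 11.5%, 7.56% and 7.83% toward the longest, whereas the shares that rose lay between 9.92% and 11.9%. The shortest class reached up to 2627 bases and the longest began at 8163. The median exonic length was 3499 bases in the fallen genes, 4893 in the risen ones and 4960 in those not called. Without ribosomal protein, respiratory chain, histone and other families of small genes the shares that fell were 20.4% in the shortest and 7.76% in the longest class. Among genes of the upper 2 of 5 classes of level they were 30.5% and 9.43%. The shortest class took 29.97% ± 1.32 of protein-coding counts in complete medium and 26.7% ± 0.95 in starved cells (SD, n = 5, exact permutation p = 0.00794), with no overlap between the groups. This share was not among the planned composition measures and its p is not adjusted. It draws on the same libraries as the falls above. Why the share that fell differed with exonic length was not tested. The genes of the X chromosome had a median log2 change of -0.20 over 370 tested, beside -0.06 over the autosomes. Of the X genes 22 rose (5.95%) and 39 fell (10.5%), against 10.9% and 11.7% of autosomal genes. Chromosomes 7 and 9 had medians of -0.18 and -0.16. Xist, the noncoding RNA of the silenced X chromosome, named here after its value was seen, rose from 226 ± 41.05 to 525 ± 60.2 CPM, and without it the X median was still -0.20.

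**Figure D5:**
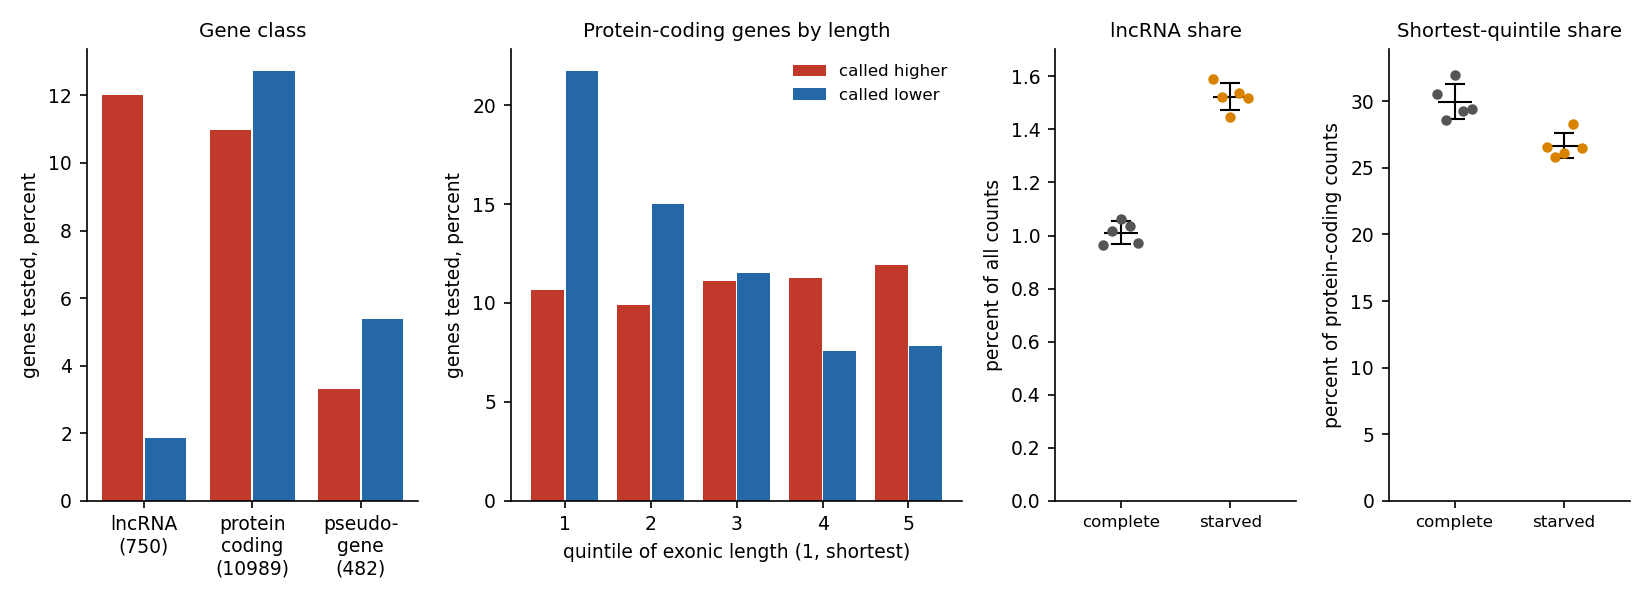
The left panels give the percentage of genes tested that were called higher (red) and lower (blue) by gene class and by quintile of exonic length of protein-coding genes. The right panels give, for each library with mean and SD, the noncoding share of counts without Gm42418 and Gm26917 and the share of protein-coding counts from the shortest quintile; in both the 5 complete and 5 starved libraries did not overlap.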

How the data were processed

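The authors deposited a table of CPM for 30926 genes, on build mm10 per the submitters' processing notes. The labels and notes do not give the aligner, the annotation, or the use of strand and of molecular identifiers. Dividing each column by the CPM of 1 count gave whole numbers within 0.001 for 100% of values, and these recovered read counts served the count tests. Gene IDs were matched to GENCODE M21 (30857 found), which gave coordinates, classes and exonic lengths. A gene was tested when 5 or more of all 25 libraries reached 5 CPM, which left 12473. Some of these genes had no count in the parental libraries. The test was limma-trend (limma version 3.58.1, under R 4.3.3) on log2(CPM + 1), in 1 fit of all 25 libraries with 20 residual degrees of freedom. It was two-sided, with Benjamini-Hochberg adjustment over all genes, and a call is an adjusted p under 0.05. Folds are ratios of mean CPM. For low genes the log2 change can be understated, or overstated where single libraries hold no count. Gcat had a log2 change of -3.85, but -2.41 with edgeR and a 6.84-fold fall of mean CPM. The largest rises and falls and the strongly risen and fallen genes were chosen on this log2 scale. edgeR 4.0.16 (quasi-likelihood) and DESeq2 1.42.0 were run on the recovered counts as alternatives. Composition measures were compared by exact permutation. The fit was tested on simulated data with 100 genes changed 2-fold and 100 changed 4-fold. It called 45% of the former and 88% of the latter, and 8.9% of its calls were false, more than the threshold of 0.05 aims at. The changed genes were drawn only from those above a minimum level in complete medium, and all genes were given the same spread. The shares called therefore do not apply to rarer genes. Promoters are RefSeq sequences, taking the window nearest the GENCODE gene start on the same strand. Of the windows taken, 87.2% lay within 500 bases of that start. Those of Arl5b and Nupr1 lay further inside the gene, at a RefSeq start away from the GENCODE one.

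The comparison, the motifs and the 53 gene lists were chosen with earlier results of these data known; lists are described by counts and medians, with no set test. The naming rule took the 40 rises and 40 falls of largest log2 change whose libraries did not overlap and whose higher group averaged 20 CPM or more, without predicted genes. It added the 12 largest CPM differences each way, up to 5 members of each list by smallest p, called factors of the transcription factor lists, and the 5 leading noncoding genes and pseudogenes. Not every gene the rule takes is described, and some genes and lists are not reported here. Of 155 genes named and tested, 37 share exon sequence with another tested gene, for example Hspe1 with Hspd1 and Mrpl18 with Tcp1, and reads of the shared stretch may belong to either. Families with close copies, such as histone and ribosomal protein genes, are uncertain in the same way.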

Additional observations from a re-analysis of the deposited data

Results flagged for a closer look

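Among 66 groups of 5 values examined, 5 held a library far from the other 4 by Dixon's criterion, which chance alone meets in about 1 of 20 groups. Lonp1 was at 102 CPM in complete replicate 1 against 74.8 to 82.0 CPM in the other complete libraries, and all 5 lay below the starved ones. Starved replicate 1 had the highest share of counts from mt-Rnr1 and mt-Rnr2 in its group, 25.9%. It also had the highest share from the 20 most abundant genes, 32.4%, and the lowest effective number of genes at equal depth, 935. Starved replicate 4, the deepest library, had the highest share of ribosomal protein counts of the starved group, 4.41%.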

How the results depend on the processing

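The number of genes called, 2799, lay between 2448 with DESeq2 and 3061 with edgeR over the pseudocounts, filters, scalings, depths and tools tried, and between 2484 and 2720 with single libraries left out. Of the calls, edgeR shared 2525 and DESeq2 2284 in the same direction. edgeR had 1654 higher and 1407 lower. Fitted on the parental libraries only, the test called 2509 without and 2194 with the replicate number as a block (1044 higher and 1150 lower), but same-numbered libraries did not deviate together (correlations -0.002 to 0.026), so they share only a number. Of the 154 called genes named, 152 kept their call under every alternative that gave a value. Under quantile scaling mt-Cytb (log2 change 0.24, limma adjusted p = 0.19) and mt-Nd1 (0.0065) lost theirs. Without starved replicate 3, the library apart on the next principal component, ribosome biogenesis had 22 rises and 3 falls, mitochondrial ribosomal proteins 2 and 20, and tetraspanins and claudins 1 and 9. Of list counts under 10, 34 of 92 moved by over 1.5 times when 1 library was left out, and 2 of 14 larger ones did. The median changed sign in 4 lists under quantile scaling, 3 with edgeR, 3 at equal depth and 1 with TMM.

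Single libraries set the sign of several composition differences. With 1 library left out, starved minus complete ran from -0.21 to 2.02 percentage points for the mitochondrial share and from -0.49 to 1.67 for mt-Rnr1 and mt-Rnr2. It ran from -1.29 to 0.67 for the 100 most abundant genes and from -0.085 to 0.30 for the noncoding share. With all libraries kept, the difference was 0.27 for the 20 and 0.12 for the 500 most abundant genes. Without Gm42418 and Gm26917, chosen after seeing the data, the noncoding difference was 0.51. The ribosomal protein share ran from -0.57 to -0.26, with an exact permutation p of 0.0159 without starved replicate 4, and p also under 0.05 without complete replicate 2. The effective number of genes ran from -122.1 to 53.1. The causes were not tested. Depth limits rare messages, since 1 count was worth up to 6.30 CPM.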
